A study of Mus musculus with 48 samples.

Results

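The cytochrome P450 enzymes of families 1 to 3 are the heme monooxygenases of the endoplasmic reticulum that oxidise most drugs, together with steroids, bile acids and polyunsaturated fatty acids. They were chosen here by name: protein-coding mouse genes whose symbol is Cyp1, Cyp2 or Cyp3 followed by a letter and a number, with a mean of at least 1 CPM (counts scaled to a common library total) over all 48 liver libraries. Of 61 such genes among the 55416 genes counted, 40 met the minimum and 21 did not, and all 40 were tested in the fit over the 6 groups. Just inside the minimum lay Cyp2c40 (1.15 CPM) and Cyp1a1 (1.16 CPM), and just outside it Cyp2d11 (0.974 CPM).

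RNA of whole liver had been sequenced from 6 groups of 8 mice, labelled C57Bl/6J and fed a western diet for 8 weeks. DN:WT, DN:HET and DN:HOM mice carried 0, 1 or 2 copies of a dominant-negative missense knock-in of liver X receptor alpha (LXRα, gene Nr1h3), the oxysterol-activated receptor of cholesterol and lipid metabolism. The knock-in was a line from 1 CRISPR founder, and per the study's methods the DN mice were male littermates of heterozygous crosses. KO:WT, KO:HET and KO:HOM mice carried 0, 1 or 2 copies of an LXRα knockout allele, made on a mixed background, backcrossed to C57Bl/6 and kept at another institution, so that allele, site and colony cannot be told apart between the DN and KO mice. Both alleles were germline and so present in every cell type.

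Libraries held 5332897 to 16961379 reads on genes (median 15879971.5), the shallowest being KO:HET animal 3 (5332897) and KO:HOM animal 17 (5376226). Nr1h3 averaged 91.8 CPM in DN:WT, 92.7 in DN:HET and 72.8 in DN:HOM livers, and 93.6, 59.2 and 27 CPM in KO:WT, KO:HET and KO:HOM livers; a count over the whole gene does not show where the remaining knockout reads lie. Ddx3y of the Y chromosome was at 63.3 CPM or more in every liver and Xist at 0.481 CPM or less. The library labelled DN:WT animal 10 lay with the DN:HOM livers in many members and the library labelled DN:HOM animal 12 with the DN:WT livers; Cyp2e1, for example, was 1094 CPM in the first and 7431 CPM in the second. The study's liver-by-liver source data were compared for Nr0b2 and Abcb11 alone. For these genes they hold 22 DN values, all taken up by the other 22 DN livers, so no value remained for these 2. These 2 were not themselves put to the match. The main comparisons used 46 livers (7 DN:WT, 7 DN:HOM, 8 in the other groups). Fold changes of members with all 48 are given beside many of them, and further ones with the DN:HOM counts below. Fold changes of genes in other lists come from the 46 livers alone.

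Fold changes are on the log2 scale and are given ± SE; they come from the quasi-likelihood test of edgeR, with p-values adjusted by Benjamini-Hochberg over all 15711 genes tested, and a gene was called where the adjusted p was under 0.05. Heterozygous and homozygous groups of a study share their wild-type livers. Levels are TMM-scaled CPM, written as the lowest to the highest liver of a group with the median in parentheses. Paralogs of these families are alike in sequence, and reads that mapped to several places stand apart from the gene counts in the deposited values. Of 39 members with a protein-coding transcript in the annotation, 15 had no stretch of 100 bases in common with a transcript of any other gene, and 5 shared more than 10% of such stretches: Cyp2c40 (29.4%), Cyp2c68 (18.4%), Cyp2c67 (17.7%), Cyp2a5 (14.2%) and Cyp2a4 (11.2%). For those 5 the count of a gene may hold or lack reads of its neighbour.

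P450 enzymes take electrons from the reductase Por and from cytochrome b5, and their genes are read mainly in hepatocytes, many of them most strongly near the central vein. The nuclear receptors CAR (Nr1i3) and PXR (Nr1i2), which sense drugs and bile acids, raise Cyp2b, Cyp2c and Cyp3a genes, the aryl hydrocarbon receptor raises Cyp1 genes, and pulses of growth hormone set the level of those that differ between the sexes. In bulk liver, fewer hepatocytes and less RNA per hepatocyte cannot be told apart.

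Per kilobase of exon, Cyp2e1, which oxidises ethanol and acetaminophen, was the highest member in DN:WT livers at 2357 CPM per kb (range 1951 to 2632). Cyp3a11, the main bile acid and drug hydroxylase of the Cyp3a subfamily, followed at 581 CPM per kb (377 to 869), and its range overlapped that of Cyp2d9 (439 on average), a steroid hydroxylase of male liver. Cyp2d26 (415), Cyp2c29 (349.6), Cyp2a5 (285), Cyp2f2 (283), Cyp2a12 (188), Cyp2c50 (181) and Cyp2j5 (156 CPM per kb) completed the first 10. Over livers the ranges of neighbours in this order overlapped, except between Cyp2e1 and Cyp3a11 and between Cyp2f2 and Cyp2a12.

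Most of the family was lower in DN:HOM than in DN:WT livers. Of 40 members, 28 were called lower and 6 higher (25 and 7 with all 48 livers, of which 25 and 6 were the same genes), while 30% of all genes tested were called lower and 29.1% higher. Their median log2 fold change was -0.98, against -0.01 over all genes, and 20 of the lower and 5 of the higher members changed at least 2-fold. With all 48 livers the DN:HOM fold change of each called member was smaller in size. Where not given beside the gene below, it was -1.26 for Cyp2u1, -1.12 for Cyp2d13, -0.83 for Cyp2d9, -0.79 for Cyp2c68 and -0.735 for Cyp2d22. It was -0.73 for Cyp2r1, -0.71 for Cyp2d10, -0.69 for Cyp2a12, -0.53 for Cyp2c67, -0.28 for Cyp3a13 and -0.26 for Cyp2j6, each still called. All DN:HOM livers lay below all DN:WT livers in 19 members and above them in 2, Cyp1b1 and Cyp2d12, where 15.8% of all genes lay wholly below and 17.8% wholly above. Libraries scaled by their size alone moved the median of all genes in this comparison to 0.42, and the calls then were 9 higher and 25 lower.

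In KO:HOM against KO:WT livers the family did not move together. Of 40 members, 7 were called higher and 5 lower (6 and 5 with all 48 livers), against 11.5% of all genes higher and 7.87% lower, and the median log2 fold change was -0.003, against -0.02 over all genes. The 7 were Cyp3a11, Cyp3a59, Cyp3a25, Cyp2d12, Cyp2c55, Cyp2a5 and Cyp1b1, and the 5 were Cyp2c40, Cyp2c70, Cyp2c67, Cyp2c68 and Cyp2r1. Of these, Cyp2c40 averaged above 1 CPM only in KO:WT and KO:HET livers, and so met the minimum through them. KO:HOM livers lay wholly above KO:WT livers in 4 members, Cyp3a11, Cyp3a25, Cyp3a59 and Cyp2d12, and wholly below in 1, Cyp2c68, where 2.18% and 0.369% of all genes did so. Of the 28 members lower in DN:HOM, 5 were also lower and 1, Cyp3a25, was higher in KO:HOM livers.

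**Figure D1:**
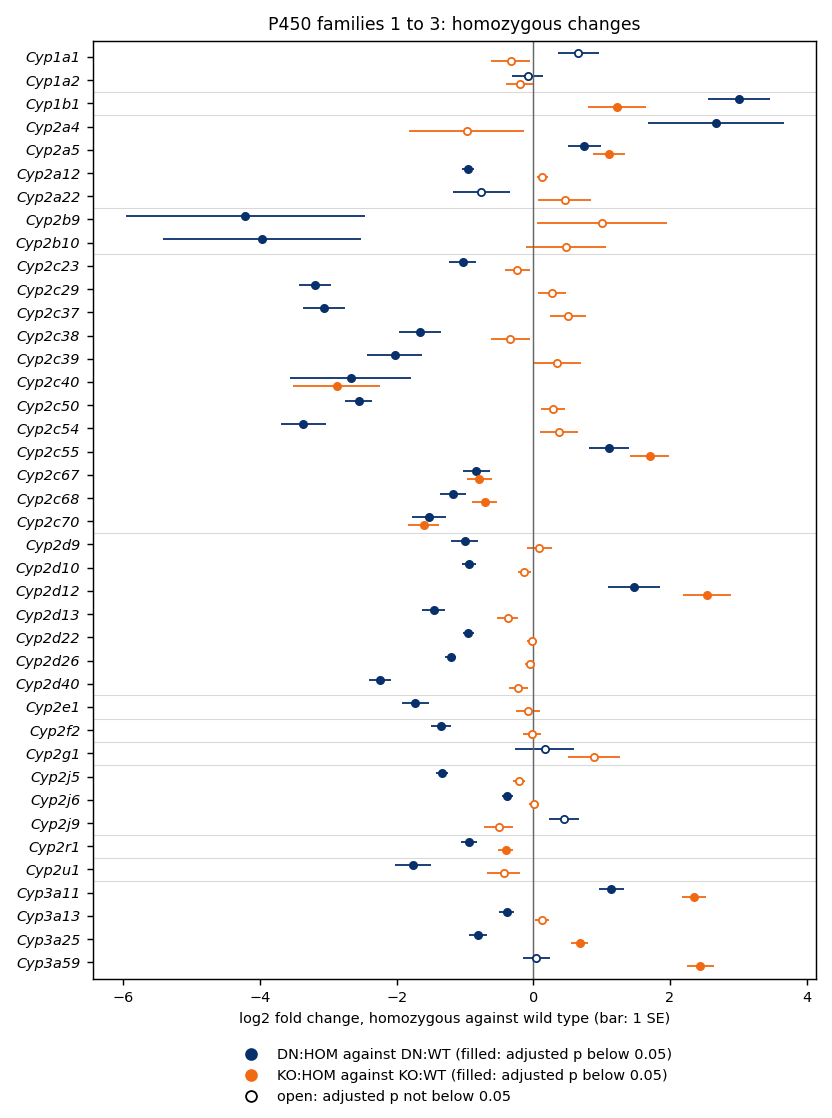
Log2 fold change of each of the 40 members in DN:HOM against DN:WT (blue) and KO:HOM against KO:WT livers (orange), from 46 livers, with 1 SE either side; filled points had an adjusted p under 0.05. In DN:HOM, 28 filled points lie below 0 and 6 above, while in KO:HOM the counts are 5 and 7, and Cyp2c29, Cyp2c37, Cyp2c50, Cyp2c54, Cyp2d40, Cyp2e1, Cyp2f2 and Cyp2j5 are among the members whose points lie apart between the alleles.

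The Cyp3a subfamily had the largest summed level in both homozygous groups and held the members called in heterozygotes, Cyp3a11 in both studies and Cyp3a59 in DN:HET. Cyp3a11, Cyp3a25 and Cyp3a59 lie side by side on chromosome 5 (GRCm39, chr5:145791236-146050097), and Cyp3a13 lies further off on the same chromosome. Cyp3a11 stood at 1963 to 4524 CPM (3003) in DN:WT, 3898 to 7297 (5673) in DN:HET and 4259 to 10691 (6474) in DN:HOM livers. In the KO mice it stood at 1154 to 3060.0 CPM (2307) in KO:WT, 3553 to 6536 (4428) in KO:HET and 9685 to 13285 (11716) in KO:HOM livers. The level thus stepped up from KO:WT to KO:HET to KO:HOM with no overlap between these groups, whereas DN:HET and DN:HOM livers covered much the same range. The fold change was 1.14 ± 0.18, adjusted p = 7.8e-07 in DN:HOM (0.83 with all 48 livers) and 2.35 ± 0.18, adjusted p = 3.7e-13 in KO:HOM. Among heterozygotes it was 1.05 ± 0.17, adjusted p = 9.07e-04 in KO:HET and 0.89 ± 0.18, adjusted p = 0.0063 in DN:HET. With all 48 livers the DN:HET value was 0.70 and no longer called (adjusted p = 0.14; 1.44e-04 to 0.14 over the alternatives), and the library labelled DN:WT animal 10 held 6631 CPM, above every other DN:WT liver.

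Cyp3a59 separated the 2 alleles. It stood at 28.4 to 69.1 CPM (38.1) in DN:WT, 57 to 110.4 (79.2) in DN:HET and 33.3 to 69.1 (38.5) in DN:HOM livers. Its levels in the KO study were 28.7 to 65.7 CPM (35.5) in KO:WT, 53.7 to 135 (65.7) in KO:HET and 177 to 245 (222) in KO:HOM livers. All KO:HOM livers exceeded all KO:HET and KO:WT livers, while DN:HOM overlapped DN:WT livers and lay mostly below DN:HET livers. Its fold change was 2.45 ± 0.20, adjusted p = 2.2e-12 in KO:HOM and 0.05 ± 0.20, adjusted p = 0.86 in DN:HOM, where it was called higher with scaling by library size alone (0.46, adjusted p = 0.040; 0.04 to 0.95 over the alternatives). In DN:HET it was 0.92 ± 0.20, adjusted p = 0.013, and in KO:HET 0.92 ± 0.19, adjusted p = 0.063, which was not called but passed without KO:HET animal 9 (adjusted p = 0.048) in a range of 0.0053 to 0.075 over the alternatives. Homozygous and heterozygous livers were then compared directly by exact two-sided permutation tests of mean log2(CPM + 0.1), 4 tests in all with Benjamini-Hochberg adjustment. Only the 2 members called in a heterozygous comparison were tested. They were thus chosen for high values in the same heterozygous livers, which favours a homozygous level below the heterozygous one. The adjustment covers these 4 tests alone. Cyp3a59 was lower in DN:HOM than in DN:HET (difference -0.91, exact p = 0.00155, adjusted 0.0021) and higher in KO:HOM than in KO:HET (difference 1.59, exact p = 0.000155, the smallest possible, adjusted 0.00031). Cyp3a11 was higher in KO:HOM than in KO:HET (difference 1.32, exact p = 0.000155, adjusted 0.00031), and its difference of 0.22 between DN:HOM and DN:HET did not pass (exact p = 0.28).

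Cyp3a25 moved in opposite directions with the 2 alleles. It stood at 759.7 to 1378 CPM (914) in DN:WT, 884 to 1424 (1141) in DN:HET and 471 to 803 (495) in DN:HOM livers. KO livers held 712 to 1178 CPM (934) in KO:WT, 809 to 1310.4 (1098) in KO:HET and 1262 to 1778 (1411) in KO:HOM livers. Only the highest DN:HOM liver reached into the DN:WT range, and all KO:HOM livers lay above all KO:WT livers. The fold change was -0.80 ± 0.13, adjusted p = 1.1e-06 in DN:HOM (-0.62 with all 48 livers) and 0.68 ± 0.12, adjusted p = 7.7e-05 in KO:HOM. Cyp3a13 fell slightly in DN:HOM livers (-0.39 ± 0.11, adjusted p = 0.0029), a value that changed sign to 0.03 where libraries were scaled by size alone, and was at 0.12 ± 0.11 in KO:HOM.

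The promoters of the 3 clustered genes are shown because these members rose together in KO:HOM livers and parted in DN:HOM livers. Each is the 250 bases before the RefSeq start (RefSeq table on GRCm38.p6), found once in GRCm39: chr5:145816665-145816914 on the minus strand for Cyp3a11, chr5:145946429-145946678 on the minus strand for Cyp3a25 and chr5:146015818-146016067 on the plus strand for Cyp3a59. The gene annotated in GRCm39 starts 203 bases before the RefSeq start of Cyp3a11, so its window lies partly within the annotated gene. Capitals mark matches on either strand to AGNTCA, the core that nuclear receptors of the CAR, PXR and LXR kind bind in pairs.
Cyp3a11: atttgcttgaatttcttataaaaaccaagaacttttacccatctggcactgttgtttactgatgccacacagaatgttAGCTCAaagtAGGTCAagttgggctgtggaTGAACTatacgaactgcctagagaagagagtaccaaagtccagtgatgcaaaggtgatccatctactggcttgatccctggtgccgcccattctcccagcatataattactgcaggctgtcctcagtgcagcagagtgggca
Cyp3a25: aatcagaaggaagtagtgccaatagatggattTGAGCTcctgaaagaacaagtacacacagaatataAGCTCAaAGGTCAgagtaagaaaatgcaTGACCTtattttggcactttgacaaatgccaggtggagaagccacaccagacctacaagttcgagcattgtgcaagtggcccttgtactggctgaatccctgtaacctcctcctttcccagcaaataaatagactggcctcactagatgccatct
Cyp3a59: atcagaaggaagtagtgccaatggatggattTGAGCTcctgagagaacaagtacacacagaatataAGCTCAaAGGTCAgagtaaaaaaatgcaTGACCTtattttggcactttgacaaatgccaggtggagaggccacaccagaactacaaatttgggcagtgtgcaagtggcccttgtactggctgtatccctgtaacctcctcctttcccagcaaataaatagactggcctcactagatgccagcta

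Cyp3a11 held 3 matches, and Cyp3a25 and Cyp3a59 4 each. The windows of Cyp3a25 and Cyp3a59 were alike at 238 of 249 aligned bases (95.6%), and their 4 matches stood in the same order, while the fold changes given above were 2.45 for Cyp3a59 and 0.68 for Cyp3a25 in KO:HOM and 0.05 and -0.80 in DN:HOM livers. Of all 32851 promoter windows of this length in the table, 41.3% held at least 1 match. Of the 33 members with an entry, 16 held a match in at least 1 of their windows, a count by gene and not by window. The other 7 members had no entry in the table. The pair also shares transcript sequence: 6.1% of the 100-base stretches of Cyp3a59 and 1.35% of those of Cyp3a25 occur in the other gene.

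**Figure D2:**
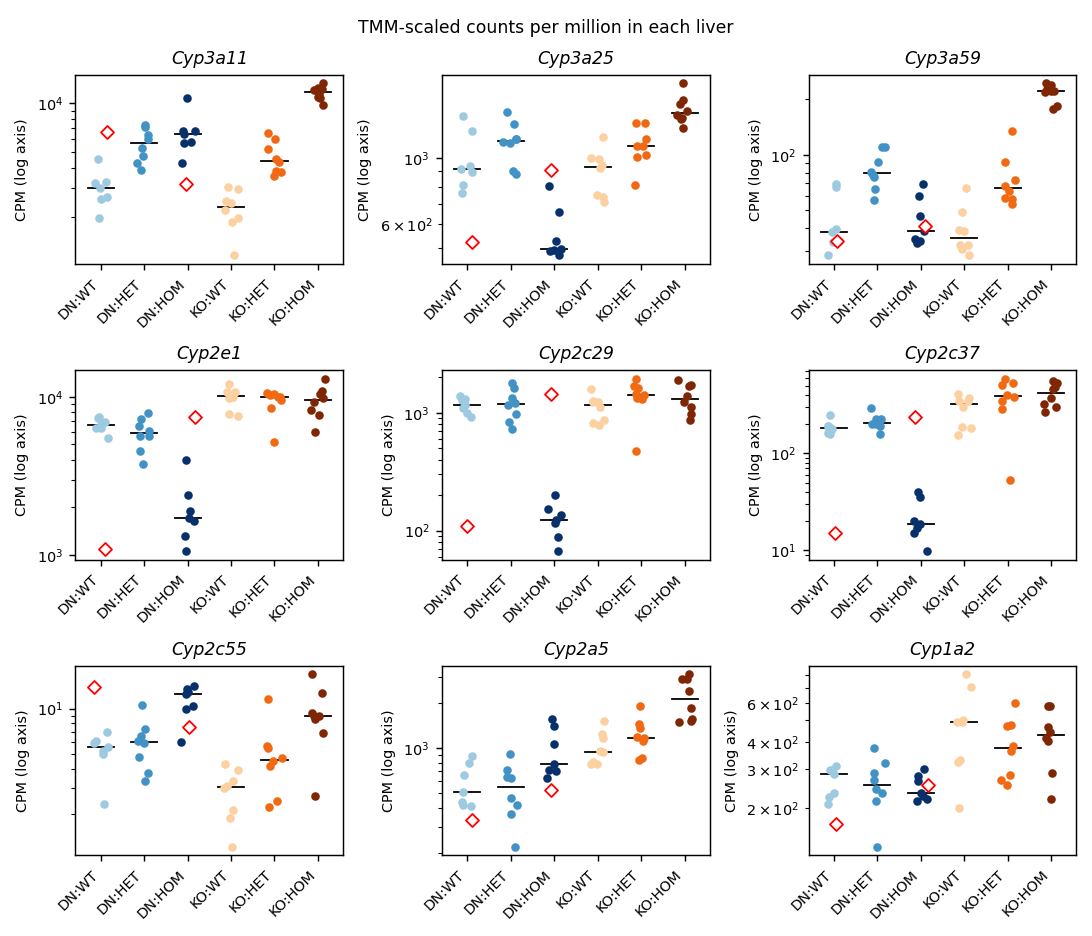
TMM-scaled CPM in each liver (log axes) for 9 members in the 6 groups; black lines are medians of the 46 livers used, and red open diamonds are the libraries labelled DN:WT animal 10 and DN:HOM animal 12, which were left out. Cyp3a11 climbs from KO:WT through KO:HET to KO:HOM, Cyp2e1, Cyp2c29 and Cyp2c37 are low in DN:HOM livers, and both diamonds lie outside the range of their labelled group in Cyp3a11, Cyp3a25, Cyp2e1, Cyp2c29 and Cyp2c37.

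The Cyp2c subfamily, the largest of the 40 with 12 members, fell almost as a whole in DN:HOM livers. Its enzymes turn arachidonic and linoleic acid into epoxides and hydroxylate retinoic acid, bile acids and drugs. In DN:HOM, 11 were called lower and 1, Cyp2c55, higher, with fold changes from -3.37 to 1.11 and a median of -1.85 (log2). In KO:HOM, 4 were lower and 1 higher, with a median of 0.02. The summed Cyp2c level went from 2636 to 3464 CPM in DN:WT to 508.0 to 1032 CPM in DN:HOM livers, and was 2397 to 4876 in KO:WT and 2843 to 5236 CPM in KO:HOM livers.

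Among them Cyp2c29, Cyp2c37, Cyp2c50 and Cyp2c54, enzymes of arachidonic acid oxidation, fell by more than 5-fold. Cyp2c29 stood at 924 to 1376 CPM (1172) in DN:WT, 726 to 1792 (1196) in DN:HET and 67.1 to 199 (123.01) in DN:HOM livers. Cyp2c37 stood at 159.9 to 247 CPM (182) in DN:WT, 159 to 296 (204) in DN:HET and 9.85 to 39.7 (18.6) in DN:HOM livers. Both had no overlap between DN:HOM and either other DN group. Cyp2c50 ranged over 550.2 to 722 CPM (675) in DN:WT, 584 to 898 (691) in DN:HET and 73.5 to 183 (96.9) in DN:HOM livers. Cyp2c54 ranged over 147 to 229 CPM (177) in DN:WT, 138 to 274 (169) in DN:HET and 10.4 to 31.1 (14.3) in DN:HOM livers. These too were separated by a wide gap, with no heterozygous liver near the homozygous ones. Fold changes in DN:HOM were -3.37 ± 0.32, adjusted p = 6.4e-12 for Cyp2c54, -3.20 ± 0.24, adjusted p = 5.5e-15 for Cyp2c29, -3.07 ± 0.31, adjusted p = 1.9e-11 for Cyp2c37 and -2.56 ± 0.20, adjusted p = 1.6e-14 for Cyp2c50. With all 48 livers they were -1.84, -1.83, -1.77 and -1.56 in the same order, each still called; the library labelled DN:WT animal 10 held 110.0 and that labelled DN:HOM animal 12 1444 CPM of Cyp2c29.

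None of these 4 was called in the KO mice. Cyp2c29 stood at 787 to 1598 CPM (1174) in KO:WT, 478 to 1947 (1425) in KO:HET and 872 to 1888 (1310.2) in KO:HOM livers. Cyp2c37 stood at 156 to 405 CPM (326) in KO:WT, 53.3 to 589.7 (393) in KO:HET and 265 to 559 (419) in KO:HOM livers. The KO groups overlapped in part, and KO:HET animal 9 was the lowest liver of its group in both. Cyp2c50 was at 567 to 1084 CPM (806) in KO:WT, 324 to 1259 (948) in KO:HET and 686 to 1328 (989) in KO:HOM livers. Cyp2c54 was at 86.5 to 448 CPM (252) in KO:WT, 69.8 to 526.3 (339) in KO:HET and 183 to 695 (341) in KO:HOM livers. KO:HOM fold changes were 0.28 ± 0.21, 0.51 ± 0.26, 0.29 ± 0.18 and 0.38 ± 0.27 for Cyp2c29, Cyp2c37, Cyp2c50 and Cyp2c54, with adjusted p from 0.18 to 0.38. The effect of the DN allele was lower than that of the KO allele in each, by a fitted difference of -3.74 ± 0.42 for Cyp2c54 to -2.84 ± 0.26 for Cyp2c50 (adjusted p = 2.4e-09 and 3.5e-11). With all 48 livers the differences of Cyp2c54 and Cyp2c50 were -2.23 and -1.855, each still called (adjusted p = 0.032 and 0.016).

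Promoters of Cyp2c37 and Cyp2c50 are shown as those of members on the plus strand of chromosome 19 that were both lower in DN:HOM livers; Cyp2c54, on the minus strand, lies between them. Their windows are chr19:39980618-39980867 and chr19:40077873-40078122 (GRCm39, from the same RefSeq table), and capitals again mark AGNTCA on either strand.
Cyp2c37: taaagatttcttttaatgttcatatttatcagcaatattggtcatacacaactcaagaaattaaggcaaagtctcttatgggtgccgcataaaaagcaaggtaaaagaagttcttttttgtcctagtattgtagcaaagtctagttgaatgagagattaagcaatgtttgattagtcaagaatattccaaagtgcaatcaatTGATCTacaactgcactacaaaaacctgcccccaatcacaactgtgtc
Cyp2c50: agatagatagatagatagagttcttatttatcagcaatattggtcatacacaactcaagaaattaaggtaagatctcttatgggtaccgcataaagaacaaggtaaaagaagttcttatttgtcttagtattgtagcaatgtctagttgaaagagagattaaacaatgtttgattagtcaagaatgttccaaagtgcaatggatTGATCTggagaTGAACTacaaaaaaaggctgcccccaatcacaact

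They were alike at 199 of 248 aligned bases (80.2%) and held 1 and 2 matches, fewer than the Cyp3a genes above. Among members with an entry, 17 of 33 held CAAAGT on either strand, a core of the sites of the hepatocyte factor HNF4α, against 12.6% of all windows, and 18 held TATAAA, the TATA box, against 12.4%. A member counted if any of its windows held the letters, while the share over all windows counts each window once. The members' counts may therefore be raised where a gene has several windows. The letters of AGNTCA and CAAAGT can share bases at their ends, so that a stretch may count for both. Such matches are letters in a window, and binding was not measured.

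Cyp2c70, which makes the muricholic acids of mouse bile, fell with both alleles. It stood at 257 to 439.5 CPM (368) in DN:WT, 199 to 702 (316) in DN:HET and 99.9 to 149 (127) in DN:HOM livers. Among KO livers it ranged over 181 to 880.1 CPM (519.8) in KO:WT, 212 to 651 (366) in KO:HET and 108 to 242 (180.4) in KO:HOM livers. DN:HOM livers lay wholly below DN:WT livers, while in the KO mice only the lowest KO:WT liver, animal 23, lay within the KO:HOM range. Fold changes were -1.53 ± 0.25, adjusted p = 9.5e-07 in DN:HOM (-1.08 with all 48 livers) and -1.60 ± 0.23, adjusted p = 4e-06 in KO:HOM, and their difference was 0.08 ± 0.33, adjusted p = 0.88. Cyp2c67 and Cyp2c68, neighbours that share reads with Cyp2c40 or Cyp2c69, were likewise lower with both alleles. Cyp2c68 was at 69.5 to 125 CPM (89.1) in DN:WT, 60.6 to 125 (74.2) in DN:HET and 21.4 to 62.6 (36.5) in DN:HOM livers, and at 142 to 189 CPM (163) in KO:WT, 100.2 to 189 (151) in KO:HET and 61.9 to 136 (103) in KO:HOM livers. Its fold changes were -1.18 ± 0.19, adjusted p = 1.4e-06 in DN:HOM and -0.71 ± 0.18, adjusted p = 0.0033 in KO:HOM, and those of Cyp2c67 -0.83 ± 0.20, adjusted p = 3.66e-04 and -0.79 ± 0.19, adjusted p = 0.0016; with scaling by library size alone the DN:HOM value of Cyp2c67 was -0.41 and not called (adjusted p = 0.052; 1.24e-04 to 0.052 over the alternatives). Cyp2c40, a gene of female liver, was scarce: 61 reads in 7 DN:WT and 13 in 7 DN:HOM livers, 3 of which had none, against 384 in 8 KO:WT and 53 in 8 KO:HOM livers. Its level was 0.2 to 1.16 CPM (0.472) in DN:WT, 0.0644 to 1.18 (0.455) in DN:HET and 0 to 0.48 (0.0452) in DN:HOM livers, and 0.894 to 8.28 CPM (2.72) in KO:WT, 0.0634 to 7.28 (1.29) in KO:HET and 0 to 1.85 (0.316) in KO:HOM livers. It was called lower in both (-2.67 ± 0.89, adjusted p = 0.0089, and -2.88 ± 0.64, adjusted p = 8.99e-04), but with all 48 livers the DN:HOM call was lost (-1.56, adjusted p = 0.11, and 0.0013 to 0.11 over the alternatives). Its mean exceeded 1 CPM only in KO:WT (3.39) and KO:HET livers (2.26), so its place among the members rests on those groups. The KO:HOM call is set against the first of them, and this limit holds wherever Cyp2c40 is counted.

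The remaining Cyp2c genes divided in the same way. Cyp2c39, a retinoic acid hydroxylase, was at 1.27 to 5.27 CPM (2.59) in DN:WT, 1.17 to 6.13 (1.99) in DN:HET and 0.271 to 1.33 (0.72) in DN:HOM livers, with a fold change of -2.03 ± 0.41, adjusted p = 3.5e-05. Cyp2c38 was at 40.9 to 106 CPM (61.8) in DN:WT, 23.2 to 126 (46) in DN:HET and 12.4 to 35.4 (20.1) in DN:HOM livers (-1.66 ± 0.31, adjusted p = 1.3e-05). Cyp2c23, an arachidonic acid epoxygenase that lies apart from the cluster, was at 218 to 334 CPM (314) in DN:WT, 188 to 384 (282) in DN:HET and 106 to 191 (141) in DN:HOM livers (-1.03 ± 0.20, adjusted p = 1.9e-05). In the KO mice Cyp2c39 was at 1.19 to 7.62 CPM (2.43) in KO:WT, 2.79 to 6.17 (3.7) in KO:HET and 1.47 to 8.63 (3.33) in KO:HOM livers. Cyp2c38 was there at 37.6 to 142 CPM (59.9) in KO:WT, 50.9 to 103 (79.9) in KO:HET and 29.7 to 92.2 (52.7) in KO:HOM livers, and Cyp2c23 at 148 to 500.3 CPM (377) in KO:WT, 263 to 449 (363) in KO:HET and 185 to 508 (276) in KO:HOM livers. None of these 3 was called in KO:HOM livers, at 0.35 ± 0.35, -0.33 ± 0.28 and -0.23 ± 0.18. With all 48 livers their DN:HOM fold changes were -1.21, -0.996 and -0.70, each still called. Cyp2c55, which makes hydroxylated arachidonic acid, was the exception that rose with both alleles. It stood at 2.33 to 7.02 CPM (5.54) in DN:WT, 3.34 to 10.6 (6.02) in DN:HET and 6.03 to 14.1 (12.6) in DN:HOM livers. In the KO mice it stood at 1.22 to 4.31 CPM (3.04) in KO:WT, 2.22 to 11.6 (4.59) in KO:HET and 2.66 to 16.9 (8.95) in KO:HOM livers. In each study the lowest homozygous liver alone lay within the wild-type range, and the fold changes were 1.11 ± 0.29, adjusted p = 0.0013 in DN:HOM (0.76 with all 48 livers) and 1.70 ± 0.29, adjusted p = 4.3e-05 in KO:HOM.

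**Figure D3:**
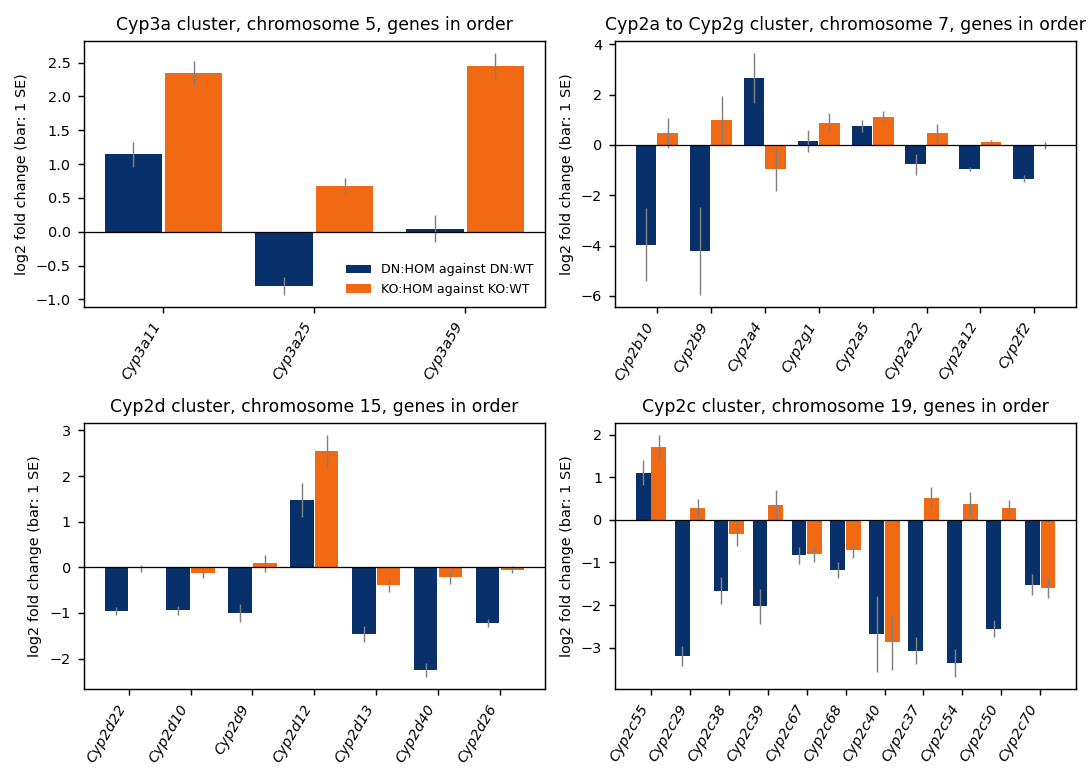
Log2 fold changes (bars, with 1 SE) of DN:HOM against DN:WT (blue) and KO:HOM against KO:WT livers (orange) for the members of 4 clusters, in their order along the chromosome. Neighbouring genes differ in direction: Cyp2c55 rose while the genes beside it fell in DN:HOM, Cyp2d12 rose with both alleles among Cyp2d genes that fell in DN:HOM (Cyp2d13 was also called lower in KO:HOM once KO:WT animal 23 was left out), and Cyp2c40, Cyp2c67, Cyp2c68 and Cyp2c70 fell with both.

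Cyp2e1, the most abundant of the 40 in DN:WT livers, fell in DN:HOM and was not called in KO:HOM livers. It stood at 5508 to 7434 CPM (6656) in DN:WT, 3768 to 7928 (5893) in DN:HET and 1059 to 3976 (1703) in DN:HOM livers. Its levels in the KO study were 7596 to 12148 CPM (10193) in KO:WT, 5208 to 10649 (9970.3) in KO:HET and 5956 to 13044 (9579) in KO:HOM livers. All DN:HOM livers lay below all DN:WT livers, and the 3 KO groups overlapped. The fold change was -1.73 ± 0.19, adjusted p = 3.6e-10 in DN:HOM (-1.16 with all 48 livers) and -0.08 ± 0.18, adjusted p = 0.80 in KO:HOM. Their difference was -1.65 ± 0.26, adjusted p = 3.1e-06, but -1.09 and not called with all 48 livers (adjusted p = 0.062; 6.5e-09 to 0.062 over the alternatives). Cyp2f2, a periportal enzyme that activates naphthalene, shared the pattern, at 799.6 to 1040.2 CPM (986) in DN:WT, 686 to 1141 (884) in DN:HET and 195 to 493 (400.3) in DN:HOM livers and 889.8 to 1313 CPM (999) in KO:WT, 962 to 1190.3 (1049) in KO:HET and 766 to 1209 (1049) in KO:HOM livers. Its fold change was -1.35 ± 0.14, adjusted p = 6.7e-11 in DN:HOM (-0.998 with all 48 livers) and -0.02 ± 0.13 in KO:HOM. An antisense gene, Gm15883 (34.1 CPM), overlaps its exons by 274 bases, and the counts used are those of the sense strand.

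In the Cyp2d subfamily, 6 of 7 members were lower and 1 higher in DN:HOM, and 1 was higher and none lower in KO:HOM livers, by the edgeR test; unadjusted p was under 0.05 for Cyp2d12 and Cyp2d13 in KO:HOM. Cyp2d40 fell most, with 81.4 to 109.5 CPM (99.6) in DN:WT, 78.1 to 159 (99.2) in DN:HET and 15.2 to 23.2 (20.5) in DN:HOM livers. KO livers held 71.2 to 109 CPM (85.6) in KO:WT, 41.4 to 111 (95.9) in KO:HET and 60.6 to 100.1 (74.5) in KO:HOM livers. Its fold change was -2.25 ± 0.16, adjusted p = 9.3e-16 in DN:HOM (-1.59 with all 48 livers) and -0.22 ± 0.14 in KO:HOM. Cyp2d26, which per kilobase came after Cyp2d9 in DN:WT and before it in KO:WT livers, was at 818 to 949 CPM (883) in DN:WT, 653 to 946 (837) in DN:HET and 331 to 427 (362) in DN:HOM livers and at 891 to 1219 CPM (1065) in KO:WT, 828 to 1221 (1035) in KO:HET and 830.3 to 1162 (1082) in KO:HOM livers. Its DN:HOM fold change was -1.21 ± 0.09, adjusted p = 1.2e-15 (-0.86 with all 48 livers) and its KO:HOM value -0.05 ± 0.08. In both genes every DN:HOM liver was below every DN:WT liver. Cyp2d13 was at 297 to 511 CPM (346) in DN:WT, 260.4 to 382 (320.3) in DN:HET and 92.6 to 169 (129.97) in DN:HOM livers (-1.46 ± 0.17, adjusted p = 6.2e-10); in KO:HOM it was at -0.38 ± 0.15, adjusted p = 0.08, and was called without KO:WT animal 23 (-0.47, adjusted p = 0.019; 0.019 to 0.25 over the alternatives). Cyp2d9 was at 955 to 1485 CPM (1274) in DN:WT, 979 to 1613 (1188) in DN:HET and 390.2 to 1005 (602) in DN:HOM livers, with overlap at the edges and a fold change of -1.002 ± 0.20, adjusted p = 2.9e-05 in DN:HOM and 0.09 ± 0.18 in KO:HOM. In the KO mice Cyp2d9 was at 609.9 to 1489 CPM (1121) in KO:WT, 511 to 1160.5 (1029) in KO:HET and 779 to 1329 (1187) in KO:HOM livers, and Cyp2d13 at 239 to 545 CPM (459) in KO:WT, 273 to 523 (398) in KO:HET and 218 to 429 (327) in KO:HOM livers. Cyp2d10 (-0.94 ± 0.10) and Cyp2d22 (-0.95 ± 0.08) were also lower in DN:HOM.

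Cyp2d12 rose with both alleles from a low level. It stood at 0.405 to 1.5 CPM (1.07) in DN:WT, 0.453 to 4.07 (1.6) in DN:HET and 1.67 to 4.03 (2.76) in DN:HOM livers. KO livers held 0.391 to 1.81 CPM (1.27) in KO:WT, 0.854 to 3.42 (1.59) in KO:HET and 2.86 to 16.2 (6.78) in KO:HOM livers. In each study all homozygous livers lay above all wild-type livers, with 99 reads in 7 DN:WT and 402 in 7 DN:HOM, and 142 in 8 KO:WT and 826 in 8 KO:HOM livers. Fold changes were 1.48 ± 0.38, adjusted p = 9.29e-04 in DN:HOM (1.07 with all 48 livers) and 2.55 ± 0.35, adjusted p = 1.8e-06 in KO:HOM. Of its 100-base stretches 3.69% occur in another gene, in each case Cyp2d9.

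The Cyp2a genes lie with Cyp2b, Cyp2f2 and Cyp2g1 in a cluster on chromosome 7 (chr7:25597045-26833090). Cyp2a5, the coumarin hydroxylase of mouse liver, rose with both alleles. It stood at 409 to 891 CPM (509.8) in DN:WT, 220.4 to 919.6 (549.6) in DN:HET and 628 to 1581 (780.1) in DN:HOM livers. Among KO livers it ranged over 786 to 1516 CPM (952) in KO:WT, 831 to 1916 (1178) in KO:HET and 1502 to 3128 (2137) in KO:HOM livers. Homozygous and wild-type ranges overlapped in both studies, though only at the edge in the KO mice. Fold changes were 0.75 ± 0.25, adjusted p = 0.0082 in DN:HOM (0.73 with all 48 livers) and 1.11 ± 0.23, adjusted p = 4.72e-04 in KO:HOM, and their difference was -0.36 ± 0.34, adjusted p = 0.43. Cyp2a12 was at 583 to 805 CPM (625.5) in DN:WT, 525 to 703 (649.7) in DN:HET and 274 to 417 (305) in DN:HOM livers and at 577 to 789.9 CPM (662) in KO:WT, 603 to 759 (696) in KO:HET and 556 to 815 (751) in KO:HOM livers. Its fold change was -0.95 ± 0.09, adjusted p = 1.9e-12 in DN:HOM, with no overlap, and 0.13 ± 0.08 in KO:HOM, called higher there with library size alone (0.24, adjusted p = 0.017; 0.017 to 0.54 over the alternatives). Cyp2a22 was not called in either (-0.76 ± 0.42 and 0.46 ± 0.39).

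Cyp2a4, a steroid hydroxylase of female liver, is a close relative of Cyp2a5 and yet was read at a small fraction of its level. It stood at 0.136 to 3.27 CPM (0.5) in DN:WT, 0 to 3.1 (0.325) in DN:HET and 0.838 to 20.8 (5.02) in DN:HOM livers. In the KO mice it stood at 0.349 to 46.2 CPM (1.35) in KO:WT, 0.56 to 17 (1.27) in KO:HET and 0.324 to 11.6 (1.49) in KO:HOM livers. The spread within groups was wide, and the KO:WT maximum of 46.2 CPM was that of animal 23 alone. The fold change was 2.67 ± 0.99, adjusted p = 0.019 in DN:HOM (2.31 with all 48 livers) and -0.97 ± 0.84, adjusted p = 0.46 in KO:HOM. The difference of the 2 effects, 3.64 ± 1.30, adjusted p = 0.026, was 1.14 and not called without KO:WT animal 23 (adjusted p = 0.47), and also not called with all 48 livers (0.012 to 0.47 over the alternatives). The 250 bases before the start of the pair are printed because sequence near the start differs so little while the levels differ so much; capitals are the bases that differ. Cyp2a4 is chr7:26006367-26006616 and Cyp2a5 chr7:26534514-26534763, both on the plus strand of GRCm39.
Cyp2a4: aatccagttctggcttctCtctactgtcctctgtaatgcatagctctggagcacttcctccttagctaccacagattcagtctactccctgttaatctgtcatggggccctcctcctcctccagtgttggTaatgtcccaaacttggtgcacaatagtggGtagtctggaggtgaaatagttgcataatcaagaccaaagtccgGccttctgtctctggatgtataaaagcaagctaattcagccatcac
Cyp2a5: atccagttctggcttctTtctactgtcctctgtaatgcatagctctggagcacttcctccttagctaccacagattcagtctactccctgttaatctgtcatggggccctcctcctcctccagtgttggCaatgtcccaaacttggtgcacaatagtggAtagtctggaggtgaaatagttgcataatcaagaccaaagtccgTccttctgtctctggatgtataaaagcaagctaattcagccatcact

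They were alike at 245 of 249 aligned bases (98.4%). Mean level per kilobase was 0.625 CPM for Cyp2a4 and 285 CPM for Cyp2a5 in DN:WT livers, and 3.99 and 475 CPM per kb in DN:HOM livers. Since 183 of the 1639 windows of 100 bases in Cyp2a4 also occur in Cyp2a5, reads that fell wholly within them would map to both and be left uncounted.

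The Cyp2b genes, the classical targets of CAR, were scarce and uneven. Cyp2b10 stood at 0 to 1.32 CPM (0.477) in DN:WT, 0.0586 to 2.26 (0.539) in DN:HET and 0 to 0.136 (0) in DN:HOM livers, the last from 4 reads in 2 of 7 livers against 55 reads in DN:WT. Its levels in the KO study were 0.431 to 17.1 CPM (1.81) in KO:WT, 3.03 to 38.2 (14.7) in KO:HET and 1.3 to 28.7 (4.18) in KO:HOM livers. DN livers of all genotypes thus held little of it, and KO livers more. Cyp2b9, a female-biased gene, stood at 0.283 to 9.54 CPM (1.57) in DN:WT, 0 to 53.5 (0.421) in DN:HET and 0 to 0.72 (0.0474) in DN:HOM livers. KO livers held 0 to 131 CPM (0.589) in KO:WT, 0.254 to 19.9 (8.09) in KO:HET and 1.96 to 101 (24.4) in KO:HOM livers. Single livers stood far above the median of their group, as at 53.5 CPM in DN:HET and 131 CPM in KO:WT. Both were called lower in DN:HOM, Cyp2b10 by a log2 fold change of -3.97 ± 1.46, adjusted p = 0.017 and Cyp2b9 by -4.22 ± 1.75, adjusted p = 0.036, and neither with all 48 livers (-0.89 and -1.71; adjusted p over the alternatives 1.56e-04 to 0.49 and 0.0015 to 0.30). In KO:HOM Cyp2b9 was at 1.01 ± 0.95, adjusted p = 0.50, and at 3.91 and called without KO:WT animal 23 (adjusted p = 0.004; 0.004 to 0.59 over the alternatives). Cyp2b10 was at 0.47 ± 0.59, adjusted p = 0.62 in KO:HOM and 1.53 ± 0.59, adjusted p = 0.65 in KO:HET livers. Cyp2g1, known from the olfactory mucosa, was at 0.209 to 2.39 CPM (1.04) in DN:WT and 0.407 to 2.26 CPM (1.04) in DN:HOM, and at 0.575 to 4.32 CPM (1.95) in KO:WT and 2.22 to 5.7 CPM (3.17) in KO:HOM livers. Its groups overlapped in both studies, and it was called in none of the homozygous comparisons.

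The Cyp2j genes and the single Cyp2r and Cyp2u genes followed the DN:HOM decrease in part. Cyp2j5, an arachidonic acid epoxygenase, stood at 649 to 748 CPM (684) in DN:WT, 492 to 778 (679) in DN:HET and 243 to 297 (268) in DN:HOM livers. Among KO livers it ranged over 616 to 857 CPM (721) in KO:WT, 486 to 809 (746) in KO:HET and 532 to 695 (632) in KO:HOM livers. DN:HOM livers formed a narrow group far under the rest. The fold change was -1.34 ± 0.09, adjusted p = 3.4e-16 in DN:HOM (-0.96 with all 48 livers) and -0.21 ± 0.08, adjusted p = 0.071 in KO:HOM, the latter called without KO:HET animal 9 (adjusted p = 0.034; 0.034 to 0.44 over the alternatives). Cyp2j6 fell by a small amount in DN:HOM (-0.38 ± 0.08, adjusted p = 3.9e-05), a direction that turned to 0.05 with scaling by library size alone, and Cyp2j9 was called in neither (0.45 ± 0.22 in DN:HOM, -0.51 ± 0.21 in KO:HOM). In DN:HOM Cyp2j9 was called higher with scaling by library size alone (0.88, adjusted p = 6.6e-04) or by upper quartile (0.53, adjusted p = 0.038), in a range of 6.62e-04 to 0.27 over the alternatives. Cyp2u1, a fatty acid hydroxylase, was at 41.5 to 54.6 CPM (46.9) in DN:WT, 27.9 to 53.2 (45.7) in DN:HET and 12 to 15.5 (14.2) in DN:HOM livers (-1.76 ± 0.26, adjusted p = 1.8e-07), and at 11.1 to 51.6 CPM (23.6) in KO:WT, 12.7 to 32.5 (21.7) in KO:HET and 6.99 to 29.6 (21.6) in KO:HOM livers (-0.43 ± 0.24, adjusted p = 0.22). Cyp2r1, which hydroxylates vitamin D, was lower with both alleles, -0.95 ± 0.12, adjusted p = 2.3e-09 in DN:HOM and -0.41 ± 0.11, adjusted p = 0.0053 in KO:HOM, the latter not called with library size alone (-0.29, adjusted p = 0.052; 0.0034 to 0.052 over the alternatives).

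Of the Cyp1 genes, the targets of the aryl hydrocarbon receptor Cyp1a1 and Cyp1a2 were not called in either homozygous comparison. Cyp1a2, which clears caffeine, stood at 209.8 to 309.8 CPM (286) in DN:WT, 134 to 376 (256) in DN:HET and 215 to 302 (234) in DN:HOM livers. In the KO mice it stood at 201 to 808 CPM (490.5) in KO:WT, 256 to 597 (374) in KO:HET and 219 to 582 (430.1) in KO:HOM livers. Its groups overlapped throughout, and the fold changes were -0.08 ± 0.22, adjusted p = 0.77 in DN:HOM and -0.19 ± 0.21, adjusted p = 0.57 in KO:HOM. With these errors a small change could not be detected. Cyp1a1 was at 0.66 ± 0.30, adjusted p = 0.055 in DN:HOM and passed in 7 alternatives, all 48 livers among them (0.73; 0.0017 to 0.096 over the alternatives). Cyp1b1, an enzyme of mesenchymal and other cells outside the hepatocyte, rose with both alleles. It stood at 0.337 to 1.47 CPM (0.714) in DN:WT, 0.588 to 3.57 (1.54) in DN:HET and 4.75 to 7.77 (5.95) in DN:HOM livers. Its levels in the KO study were 0.275 to 1.82 CPM (1.05) in KO:WT, 0 to 5.01 (1.07) in KO:HET and 0.679 to 5.4 (2.12) in KO:HOM livers. All DN:HOM livers exceeded all DN:WT and DN:HET livers, while the KO groups overlapped. Fold changes were 3.01 ± 0.46, adjusted p = 3.2e-07 in DN:HOM (1.97 with all 48 livers) and 1.22 ± 0.42, adjusted p = 0.033 in KO:HOM, the latter not called with all 48 livers (adjusted p = 0.12), without the low-count filter or with each study alone (0.013 to 0.12 over the alternatives). Stellate and fibroblast markers moved with it: their summed level was 225 to 311 CPM in DN:WT and 835 to 1147 CPM in DN:HOM, 213 to 472 CPM in KO:WT and 312 to 575 CPM in KO:HOM livers, and their part in the Cyp1b1 result was not tested.

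In heterozygous livers few members moved. In DN:HET, 2 of 40, Cyp3a11 and Cyp3a59, were called higher and 0 lower (4 and 1 at an unadjusted p under 0.05, and 2 and 0 by DESeq2), where 2.23% of all genes tested were called higher and 0.07% lower. In KO:HET, 1 member, Cyp3a11, was called higher and 0 lower (5 and 2 at an unadjusted p under 0.05, and 2 and 0 by DESeq2), where 0.0127% of all genes were called higher, 2 genes in all, and 0.00636% lower, 1 gene. No member had DN:HET livers wholly outside the DN:WT range, and 1, Cyp3a11, had KO:HET livers wholly above KO:WT; of all genes tested, 0.134% had DN:HET livers wholly above and 0.0573% wholly below DN:WT, and 0.0127% had KO:HET livers wholly above and 0.00636% wholly below KO:WT. Markers of 3 other cell types moved in the same DN:HET comparison, with 5 of 15 macrophage, 3 of 7 T and B cell and 1 of 5 neutrophil markers called higher (0, 1 and 0 with all 48 livers); their part in the Cyp3a results was not tested. Macrophage markers summed to 238 to 478 CPM in DN:WT and 281 to 1651 CPM in DN:HET, and T and B cell markers to 3.69 to 7.33 CPM and 5.16 to 23 CPM. The median over the 40 members was -0.02 in DN:HET and 0.02 in KO:HET, against -0.01 and -0.01 over all genes. Members with large DN:HOM falls were near 0 in DN:HET, for example 0.05 ± 0.21 for Cyp2c29, -0.17 ± 0.18 for Cyp2e1 and 0.11 ± 0.14 for Cyp2d40.

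**Figure D4:**
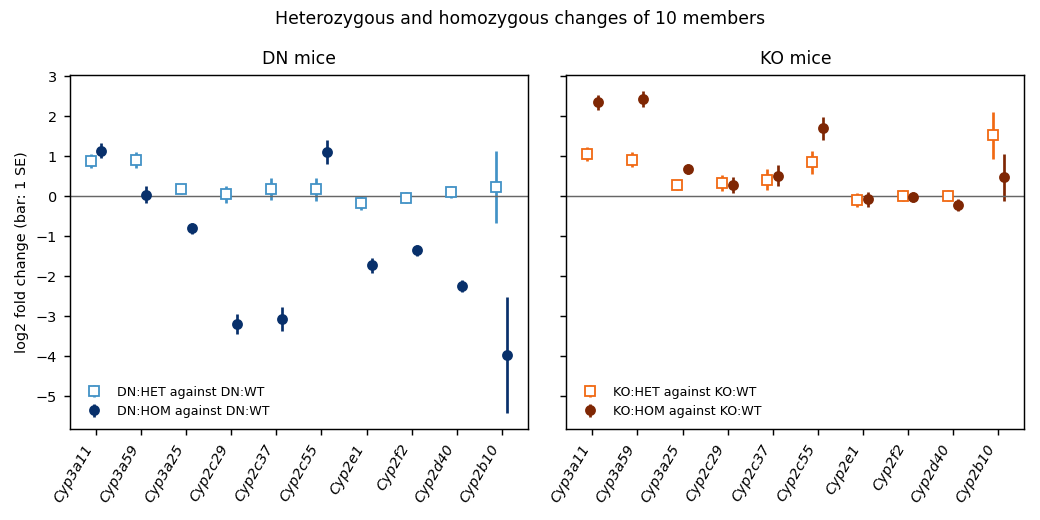
Log2 fold changes (points, with 1 SE) of heterozygous (open squares) and homozygous livers (filled circles) against wild type for 10 members in DN mice (left) and KO mice (right). In KO mice Cyp3a11 and Cyp3a59 step up from HET to HOM, whereas in DN mice the 2 genes are up in HET and the Cyp2c29, Cyp2c37, Cyp2e1, Cyp2f2 and Cyp2d40 points lie far below 0 only in HOM.

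The effect of 2 DN copies minus that of 2 KO copies was tested as 1 contrast over all 6 groups. It was called negative for 26 members and positive for 3 (15 and 0 with all 48 livers), where 18.3% of all genes were negative and 16.5% positive, with a member median of -1.08 against -0.004 over all genes. Of the 26, 22 were genes lower in DN:HOM and not called in KO:HOM, among them Cyp2e1, Cyp2f2, Cyp2j5, Cyp2c29 and Cyp2d40. Cyp3a11 and Cyp3a59 belonged to it from the other side, with differences of -1.21 ± 0.25, adjusted p = 1.58e-04 and -2.40 ± 0.28, adjusted p = 6.9e-09, and Cyp3a25 with -1.48 ± 0.18, adjusted p = 1.3e-08. The 3 positive members were Cyp2a4, Cyp1b1 and Cyp2j9, none of them called with all 48 livers. Members that changed with both alleles and whose difference was not called were Cyp2c40, Cyp2c67, Cyp2c68 and Cyp2c70 among the lower and Cyp2a5, Cyp2c55 and Cyp2d12 among the higher; for Cyp2c70 the difference was 0.08 ± 0.33 and for Cyp2c67 -0.04 ± 0.27.

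Wild-type livers of the KO and DN studies also differed, and site, colony and batch cannot be told apart in that comparison. KO:WT exceeded DN:WT in 10 members and was lower in 2 (8 and 2 with all 48 livers), where 6.47% of all genes were higher and 5.54% lower. The higher included Cyp1a2 (0.87 ± 0.22, adjusted p = 0.0055), Cyp2a5 (0.81 ± 0.24), Cyp2e1 (0.58 ± 0.18), Cyp3a13 (0.63 ± 0.11), Cyp2c67, Cyp2c68, Cyp2c40, Cyp2b10, Cyp2d22 and Cyp2d26, and the lower were Cyp2u1 (-0.76 ± 0.24) and Cyp2c55 (-0.88 ± 0.30). With all 48 livers the calls of Cyp2e1 (adjusted p = 0.07), Cyp2d26 (0.082) and Cyp2u1 (0.15) were lost, and Cyp3a11 was called lower (-0.62, adjusted p = 0.035). The Cyp2u1 call was also lost without KO:WT animal 23 (-0.69, adjusted p = 0.061), and the Cyp2c55 call without the low-count filter and with unstranded counts; adjusted p over the alternatives ran from 0.019 to 0.15 and from 0.0089 to 0.067. Cyp2e1 and Cyp2d22 were not called without the low-count filter (adjusted p = 0.058 and 0.068; 0.015 to 0.07 and 0.011 to 0.068 over the alternatives).

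Summed over the 40 members, the P450 level had a median of 20517 CPM in DN:WT, 22088 in DN:HET and 13239 CPM in DN:HOM livers, and 25732, 28072 and 38086 CPM in KO:WT, KO:HET and KO:HOM livers. The library labelled DN:WT animal 10 summed to 12091 CPM and that labelled DN:HOM animal 12 to 22003 CPM. The make-up of the sum changed too, toward Cyp3a with both alleles. Cyp3a genes made up a median of 19.7% of it in DN:WT, 30.7% in DN:HET and 52.5% in DN:HOM livers, and 12.9%, 20.3% and 38.3% in KO:WT, KO:HET and KO:HOM livers. Cyp2e1 went from 32.7% to 13.2% between DN:WT and DN:HOM and from 39.1% to 25.8% between KO:WT and KO:HOM, and Cyp2c genes from 15.2% to 5.15% in the DN mice. In KO:HOM livers the Cyp2e1 share declined while its level was not called and the sum was larger.

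**Figure D5:**
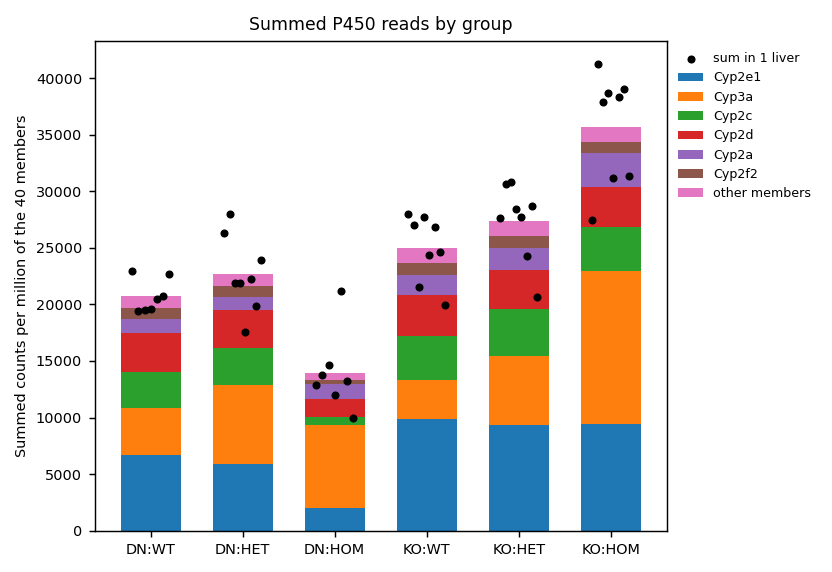
Summed TMM-scaled CPM of the 40 members by group; bars stack the mean of each subfamily over the 46 livers used, and black points are the sums of single livers. The DN:HOM bar is the lowest and holds little Cyp2c, and the KO:HOM bar is the highest, with Cyp3a as its largest part.

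Most genes that serve these enzymes were lower in DN:HOM livers as well. All counts of other gene lists stand against the shares given above for all genes, 29.1% higher and 30% lower in DN:HOM and 11.5% and 7.87% in KO:HOM. Of 16 genes for redox partners and heme supply, 12 were called lower and 1, the heme oxygenase Hmox1, higher in DN:HOM, and 3 lower and 2 higher in KO:HOM livers, with medians of -0.41 and -0.02; with all 48 livers 0 were higher and 1 lower in KO:HOM. The heme enzyme Cpox (-1.33 ± 0.12, adjusted p = 7.8e-13) and the cytochrome b5 gene Cyb5b (-1.31 ± 0.12, adjusted p = 4.2e-12) fell in DN:HOM, and the reductase Por was at -0.33 ± 0.24, adjusted p = 0.24. Alas1, the first enzyme of heme synthesis, was at -0.53 ± 0.30, adjusted p = 0.12 in DN:HOM and 0.46 ± 0.28, adjusted p = 0.26 in KO:HOM.

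Of 15 tested xenobiotic receptors and other regulators of P450 genes, 9 were lower and 1 higher in DN:HOM, and 2 lower and 0 higher in KO:HOM livers. CAR (Nr1i3) was at -1.03 ± 0.20, adjusted p = 2.4e-05 in DN:HOM and 0.14 ± 0.19, adjusted p = 0.64 in KO:HOM, PXR (Nr1i2) at -0.15 ± 0.12, adjusted p = 0.26 and -0.28 ± 0.11, adjusted p = 0.064. The fatty acid receptor Ppara was at -1.47 ± 0.17, adjusted p = 5.7e-10 in DN:HOM, and the aryl hydrocarbon receptor Ahr was the member that rose (0.57 ± 0.14, adjusted p = 6.58e-04). Among 13 other targets of CAR and PXR, 6 were higher and 0 lower in KO:HOM, and 4 higher and 6 lower in DN:HOM livers. The organic anion carrier Slco1a4 rose with both alleles (1.56 ± 0.22, adjusted p = 2.2e-06 in KO:HOM, 1.37 ± 0.24, adjusted p = 2.9e-06 in DN:HOM), as did the glutathione transferase Gstm3 (2.16 and 2.79). The carboxylesterase Ces2a rose in KO:HOM (0.74) and fell in DN:HOM livers (-1.15), as Cyp3a25 did. The list shares Por and Alas1 with the redox list.

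Among P450 genes known to be female-biased in mouse liver, Cyp3a16, Cyp3a41a, Cyp3a41b and Cyp3a44 lay under the minimum in these livers. Of 4 female-biased P450 genes tested, Cyp2c40, Cyp2c69 and Cyp2b9 were lower and Cyp2a4 higher in DN:HOM, and Cyp2c40 and Cyp2c69 lower in KO:HOM livers. Of 14 male-biased liver genes outside the family, 7 were lower and 1 higher in DN:HOM and 3 lower and 0 higher in KO:HOM; of 7 female-biased ones tested, 5 were lower and 1 higher in DN:HOM and 1 lower and 0 higher in KO:HOM. The summed level of the 14 male-biased genes ran over 12302 to 21193 CPM in DN:HOM and 7101 to 12628 CPM in DN:WT livers, and Mup20, which codes for a major urinary protein, was the one called higher (1.19 ± 0.28, adjusted p = 2.86e-04). None of the 14 was called in KO:HOM with all 48 livers, and then, of the female-biased P450 genes 1 was lower in DN:HOM and 1 in KO:HOM. The growth hormone receptor Ghr was lower in DN:HOM (-1.22 ± 0.11, adjusted p = 7.8e-13; -0.11 in KO:HOM). Of 11 growth hormone and sex-bias regulators tested, 2 were higher and 4 lower in DN:HOM (0 and 3 with all 48 livers) and 1 higher and 0 lower in KO:HOM. Of 4 targets of the aryl hydrocarbon receptor tested outside the P450 genes, 1 was higher and 2 lower in DN:HOM, and 1 higher and 0 lower in KO:HOM.

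Of 18 liver genes from other P450 families, 14 were lower and 3 higher in DN:HOM (median -1.17) and 5 lower and 1 higher in KO:HOM livers (median -0.26). Cyp8b1, the sterol hydroxylase that sets the cholic acid share of bile, was at -2.77 ± 0.33, adjusted p = 9.8e-10 in DN:HOM and 0.51 ± 0.29, adjusted p = 0.22 in KO:HOM, and Cyp51 of cholesterol synthesis fell with both (-1.02 and -1.47). Zonation lists without P450 genes were divided in their calls: of 14 pericentral genes 6 were lower and 2 higher in DN:HOM (1 and 1 in KO:HOM), and of 12 periportal genes 6 were lower and 2 higher (4 and 1 in KO:HOM). Both summed levels were lower in DN:HOM without overlap. The pericentral sum was 4875 to 6236 CPM in DN:WT, 2075 to 3353 in DN:HOM, 4711 to 6921 in KO:WT and 4138 to 6059 in KO:HOM livers. The periportal sum was 7749 to 10687, 4069 to 6622, 10333 to 18090 and 8522 to 13494 CPM in the same order.

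Markers of cell types moved in the same comparisons, and their part in the results above was not tested. Of 12 hepatocyte markers, 9 were lower and 1 higher in DN:HOM, with a median of -0.88 and a range from -1.92 (Hpd) to 0.34 (Trf); 7 were lower and 0 higher in KO:HOM (median -0.32). Their summed level was 80466 to 98195 CPM in DN:WT, 51805 to 61909.7 CPM in DN:HOM, 94842 to 121561 CPM in KO:WT and 72904 to 96022 CPM in KO:HOM livers. Of the 40 members, 24 had a DN:HOM fold change below the hepatocyte marker median and 9 a fold change below that of every hepatocyte marker. Of other cells' markers, 10 of 15 macrophage (5 lower), 10 of 11 stellate and fibroblast, 7 of 7 cholangiocyte and 5 of 5 neutrophil markers were higher in DN:HOM. Endothelial markers were mostly lower (4 of 7, with 1 higher; median -0.47), and T and B cell markers were called higher in 2 of 7 and lower in 1 (median 0.08). In KO:HOM the counts called higher were 8 of 15 macrophage (3 lower), 6 of 11 stellate and fibroblast, 2 of 7 cholangiocyte, 3 of 5 neutrophil, 1 of 7 endothelial (1 lower) and 4 of 7 T and B cell markers. With all 48 livers in the fit fewer were called in KO:HOM, with 3 hepatocyte markers lower and 2 stellate, 0 cholangiocyte and 1 neutrophil markers higher. In DN:HOM that fit called 8 hepatocyte markers lower, and 9 macrophage, 9 stellate and fibroblast, 7 cholangiocyte and 3 neutrophil markers higher. Spp1 is in both the macrophage and the cholangiocyte list and counts in both. Cholangiocyte markers summed to 30.7 to 71.3 CPM in DN:WT and 729 to 1079 CPM in DN:HOM, and to 25 to 102 CPM and 37.4 to 184 CPM in KO:WT and KO:HOM livers, and macrophage markers to 238 to 478 CPM, 1705 to 2501 CPM, 168 to 498 CPM and 312 to 1227 CPM in the same order. No defining marker of the hepatocyte list was without reads in any group.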

How the data were processed

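RNA-seq of 48 mouse livers was examined. The deposited values are read counts per gene: per the labels and the study's methods the authors made stranded mRNA libraries and aligned reads with STAR 2.5.0a to GRCm39. How reads were counted is not given in the sources used here; the layout is that of STAR's gene counts, with Ensembl gene identifiers and multimapping reads on a line of their own. The strand with more reads, by 6.97 to 8.62 times, was used. Reads naming no gene (24% to 35%) stayed out of library sizes, and multimapping reads made up 6.01% to 8.13%. Libraries held 5332897 to 16961379 reads on genes, and no library was identical to another.

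Groups came from the labels. Counts of 46 livers were fitted in edgeR 4.0.16 (R 4.3.3; filterByExpr, TMM, quasi-likelihood test) with 6 group means, and adjusted p-values (Benjamini-Hochberg, over 15711 genes) under 0.05 were called. The study's source data held 22 DN values for Nr0b2 and Abcb11, the genes compared, and the other 22 DN livers matched them within 0.01%. No value remained for the 2 livers left out, which were not themselves put to the match. The fit was tested on simulated data. Printed CPM are scaled by TMM over 48 libraries, and levels per kb use the union exon length of the annotation in GRCm39. The library labels give no day or batch.

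The members and gene lists were chosen with earlier results of these data known. Levels by liver are given for members called with a log2 fold change of at least 1 in either homozygous comparison, the 10 highest per kb in wild type and the sex-biased P450 genes, and others by fold change; Cyp3a25, Cyp2c67, Cyp2r1 and members used as examples were added for their results. The lists were redox partners and heme supply, xenobiotic receptors and regulators, targets of CAR and PXR and of the aryl hydrocarbon receptor, growth hormone regulators, sex-biased and sex chromosome genes, zonation genes, other P450 families and markers of hepatocytes, macrophages, stellate cells, cholangiocytes, endothelium, lymphocytes and neutrophils. Of 4 Y-linked genes tested, all were lower in DN:HOM (median log2 fold change -0.31) and none was called in KO:HOM. Alternatives were DESeq2 1.42.0, scaling by library size or upper quartile, no low-count filter, unstranded counts, each study alone, all 48 livers, no library under 10000000 reads, a threshold of 0.01 and, chosen after seeing the data, leaving out KO:HET animal 9 or KO:WT animal 23. Tables and plots used Python 3.11.15, numpy 2.4.6, pandas 2.3.3 and matplotlib 3.10.9.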

Additional observations from a re-analysis of the deposited data

Results flagged for a closer look

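Among 240 sets of livers examined (40 members in 6 groups, on log2(CPM + 0.1)), 17 had a highest or lowest liver far from the others, and chance marks about 1 set in 20. KO:HET animal 9 was the lowest of its group for 6 members, with 478 CPM of Cyp2c29, 53.3 of Cyp2c37, 324 of Cyp2c50, 69.8 of Cyp2c54, 5210 of Cyp2e1 and 486 CPM of Cyp2j5. KO:WT animal 23 was the highest of its group for Cyp2a4 (46.2 CPM) and the lowest for Cyp2c54 (86.5 CPM) and Cyp2c70 (181 CPM). The lowest livers of their groups elsewhere were KO:HOM animal 17 for Cyp1a1 (0.380 CPM), KO:WT animal 1 for Cyp1b1 (0.275 CPM), KO:HOM animal 8 for Cyp2a12 (556 CPM), DN:WT animal 17 for Cyp2c50 (550 CPM), DN:WT animal 5 and DN:HOM animal 31 for Cyp2c55 (2.33 and 6.03 CPM) and DN:HOM animal 15 for Cyp2d40 (15.2 CPM). DN:HOM animal 19 was the highest of its group for Cyp2c40 (0.480 CPM).

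The homozygous effect differed between the alleles, by the contrast of DN minus KO in edgeR, for 29 members on the log2 scale. In the Cyp2c subfamily the difference was called for Cyp2c54 (-3.74), Cyp2c37 (-3.58), Cyp2c29 (-3.47), Cyp2c50 (-2.84), Cyp2c39 (-2.39), Cyp2c38 (-1.32) and Cyp2c23 (-0.80). With all 48 livers those of Cyp2c54, Cyp2c37, Cyp2c29 and Cyp2c50 were smaller, at -2.23, -2.29, -2.11 and -1.855, each still called. That of Cyp3a11 was then larger in size, at -1.52. In Cyp2d it was called for Cyp2d40 (-2.03), Cyp2d26 (-1.16), Cyp2d9 (-1.09), Cyp2d13 (-1.08), Cyp2d22 (-0.93) and Cyp2d10 (-0.81), and in Cyp3a for Cyp3a59 (-2.40), Cyp3a25 (-1.48), Cyp3a11 (-1.21) and Cyp3a13 (-0.51). The scarce Cyp2b genes had Cyp2b9 (-5.22) and Cyp2b10 (-4.45). Other negative differences were those of Cyp2e1 (-1.65), Cyp2f2 (-1.33), Cyp2u1 (-1.33), Cyp2j5 (-1.13), Cyp2a12 (-1.08), Cyp2r1 (-0.54) and Cyp2j6 (-0.40), and the positive ones were Cyp2a4 (3.64), Cyp1b1 (1.79) and Cyp2j9 (0.95). With DN:WT animal 10 and DN:HOM animal 12 in the fit, 14 of the 29 were not called: Cyp2b9 (-2.72, adjusted p = 0.30), Cyp2b10 (-1.37, 0.49), Cyp2c39 (-1.57, 0.081), Cyp2c38 (-0.67, 0.40), Cyp2c23 (-0.48, 0.32), Cyp2d13 (-0.75, 0.086), Cyp2e1 (-1.09, 0.062), Cyp2u1 (-0.84, 0.18), Cyp2r1 (-0.33, 0.27), Cyp2j6 (-0.29, 0.12), Cyp3a13 (-0.41, 0.084), Cyp2a4 (3.29, 0.080), Cyp1b1 (0.74, 0.53) and Cyp2j9 (0.79, 0.084). The Cyp2b9 call was also lost without the low-count filter (adjusted p = 0.054), that of Cyp2a4 without KO:WT animal 23 (1.14, adjusted p = 0.47), and those of Cyp2c23, Cyp2j6, Cyp2r1 and Cyp3a13 with scaling by library size alone (adjusted p = 0.13 to 0.50).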

How the results depend on the processing

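No paired analysis was possible because replicate numbers follow accession order. Of 2316 results for single members under the alternatives, 2250 kept their direction and side of the threshold, 27 passed anew, 37 no longer passed and 2 reversed, both in DN:HOM with scaling by library size alone: Cyp2j6 (0.0468) and Cyp3a13 (0.0329). In DN:HET, 1 member was called with all 48 livers (Cyp3a59) and 1 at an adjusted p under 0.01 (Cyp3a11). In KO:HET, 2 were called by DESeq2, with library size alone, without the low-count filter and without KO:HET animal 9. With all 48 livers 15 members differed between the homozygous effects, and 6 members differed between KO:WT and DN:WT at an adjusted p under 0.01. Over all genes, calls went from 361 to 39 (all 48 livers) or 617 (DESeq2) in DN:HET, from 5456 to 1636 for the difference of homozygous effects, from 3048 to 2016 in KO:HOM (all 48 livers) and from 3 to 10 in KO:HET (DESeq2). Library size alone moved the median of all genes to 0.42 in DN:HOM, 0.31 for the difference and 0.09 in KO:HOM. Only DN:WT and DN:HOM means could change with all 48 livers, because the 2 added livers carry those labels. Group means stayed within 1 SD for 220 of 240, the unchanged DN:HET and KO means among them, and moved for 20. The cause was not tested. Members with few reads, such as Cyp2b10 and Cyp2c40, have the widest errors.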
